A study of Saccharomyces pastorianus with 12 samples.

Results

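The comparison set the 3 arrays of lager yeast sampled 8h into a brewery propagation against the 3 arrays sampled at 4h, 6 of the 12 arrays of the series. Propagation grows the yeast under oxygen until there is enough of it to ferment. All arrays held total RNA of Saccharomyces pastorianus strain CB11, taken in triplicate (A, B and C) from a production vessel that had been inoculated from a smaller one; the wort was of malt and maltose adjunct, supplemented with zinc and oxygenated. The labels name 1 vessel and no separate propagations, so each p-value below reflects the spread among samples of a single culture and may be technical. The other 6 arrays, 3 at 0h and 3 at 30h, are used only to place a gene's level.

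The arrays were chosen by their labelled sampling time, and the genes by their probe sets. Of 10928 probe sets, 5685 carried a single S. cerevisiae gene and 4916 a single gene of the fission yeast Schizosaccharomyces pombe, which the culture should not contain. The 5685 gave 5635 genes with 1 probe set each, of which 5495 were bright enough to test and 140 were not. A level is given as a percentile rank within its array, where 100 is the brightest of the S. cerevisiae probe sets. A rank depends on the probes as well as on the transcript, so a gene's rank at 8h is set only against the same gene's rank at 4h. Ranks within an array have a fixed mean, so that rises of some genes go with falls of others. S. pastorianus is a hybrid of S. cerevisiae and S. eubayanus, and the signal sums whatever bound probes that were designed on S. cerevisiae.

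Yeast entering fresh, oxygenated wort is known to take up glucose before maltose, to use oxygen for the synthesis of ergosterol and unsaturated fatty acids, and to rebuild ribosomes before dividing. Glycolytic enzymes, ribosomal proteins, histones and cell wall mannoproteins are among the most abundant transcripts of such cells. Genes of mating, meiosis and sporulation are in contrast kept low in cells that carry both mating types and have ample nutrients.

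The 8h arrays were dimmer and spanned a narrower range than the 4h arrays. The median S. cerevisiae probe set had a deposited signal of 52.9, 51.7 and 30.5 on the 8h arrays A, B and C, against 94.0, 92.9 and 99.2 on the 4h arrays. The background, taken as the 95th percentile of the S. pombe probe sets, was 14.6, 13.9 and 11.9 at 8h and 5.22, 5.57 and 4.12 at 4h. Thus the median S. cerevisiae signal stood 2.56 to 3.71 times above background at 8h, against 16.7 to 24.1 times at 4h. Array 8h C was the dimmest, with 86.1% of S. cerevisiae probe sets above background, against 92.9% on each of 8h A and B and 95.5% to 96.4% on the 4h arrays. Spearman correlations across the 5685 probe sets were 0.900 to 0.927 among the 8h arrays, 0.991 to 0.995 among the 4h arrays and 0.331 to 0.398 between the times, a description across genes, which are not independent replicates. The cre spike-in control was 205 to 303 times the median S. cerevisiae signal at 8h and 30.6 to 40.0 times at 4h. The ratio of 3′ to 5′ probe sets had a median over 8 control genes between 1.30 and 1.98 at 8h, against 1.73 and 2.02 at 4h. The 30h arrays were closer to the 8h than to the 4h arrays, with a background of 12.6 to 14.9. Their SD of log2 signals was 1.41 to 1.43 and their spike-in 139 to 210 times the median. At 0h, the 3′ to 5′ ratio was 35.5 on array A and 6.96 on array C. The spike-in on 0h B was only 0.823 times the median. The part of the brightness, background and spike-in differences in the results below was not tested. Nor was it tested whether the 8h arrays were hybridised with the same kind of labelled material as the 4h arrays, which limits the reading of every rise and fall below as a change in transcripts. Low correlation between the times and the higher background bear on that limit. So do the median ranks of short reading frames, 48.9 at 8h and 5.49 at 4h. Genes measured with shared probes had median ranks of 77.6 at 8h and 38.5 at 4h. How far each of these bears on it was not tested.

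**Figure D1:**
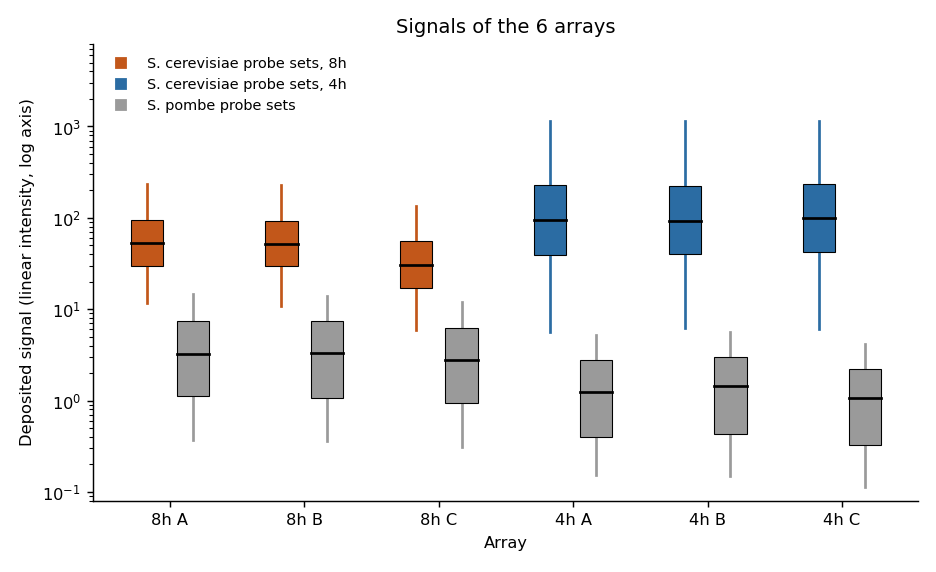
Deposited signal (linear intensity, log axis) on each of the 6 arrays, 8h left of 4h; boxes run from the 25th to the 75th percentile with a line at the median, whiskers from the 5th to the 95th percentile. Coloured boxes are the 5685 S. cerevisiae probe sets and grey boxes the 4916 S. pombe probe sets, which reach closer to the S. cerevisiae signals on the 8h arrays.

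Ranks were reordered on a broad scale. With limma on quantile-normalised log2 signals, 1888 of the 5495 tested genes (34.4%) were called higher at 8h and 2119 (38.6%) lower, at a Benjamini-Hochberg adjusted p under 0.05, so 72.9% were called in either direction. The shares serve as the background for every count of list members below. The arrays of the 2 times did not overlap in rank for 2034 tested genes (37%) that were higher and 2325 (42.3%) that were lower. A lack of overlap was thus common. On the deposited signals with no normalisation the split was 788 higher and 3325 lower (19.2% of calls higher, against 47.1%), and the median gene then differed by -1.28 on the log2 scale, against -0.13 in the reported values; all changes below are relative to the other genes of the array. Of the 1888 genes called higher, 843 also had every deposited 8h signal above every 4h signal and 276 had every 8h signal below every 4h signal. Of the 2119 called lower, 2118 had every deposited 8h signal below every 4h signal. The mean rank rose by over 50 points for 392 of 5635 genes and fell by over 50 points for 308, and it moved by 10 points or less for 1599 (28.4%). Replicates were less alike at 8h, where the SD of a gene's rank over the 3 arrays had a median of 6.07 points, against 1.51 points at 4h.

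Both ends of the range exchanged members. Among the 502 genes with a mean rank of 90 or more at 8h, 193 had also been there at 4h, 179 had ranked from 50 to 90, 100 from 10 to 50 and 30 below 10. Of the 543 genes at 90 or more at 4h, 76 ranked from 10 to 50 at 8h and 1 below 10. Their median rank at 8h was 81.7, while the 544 genes below 10 at 4h had a median of 27.4 at 8h. Changes of the lists below were not set against genes of like 4h rank.

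**Figure D2:**
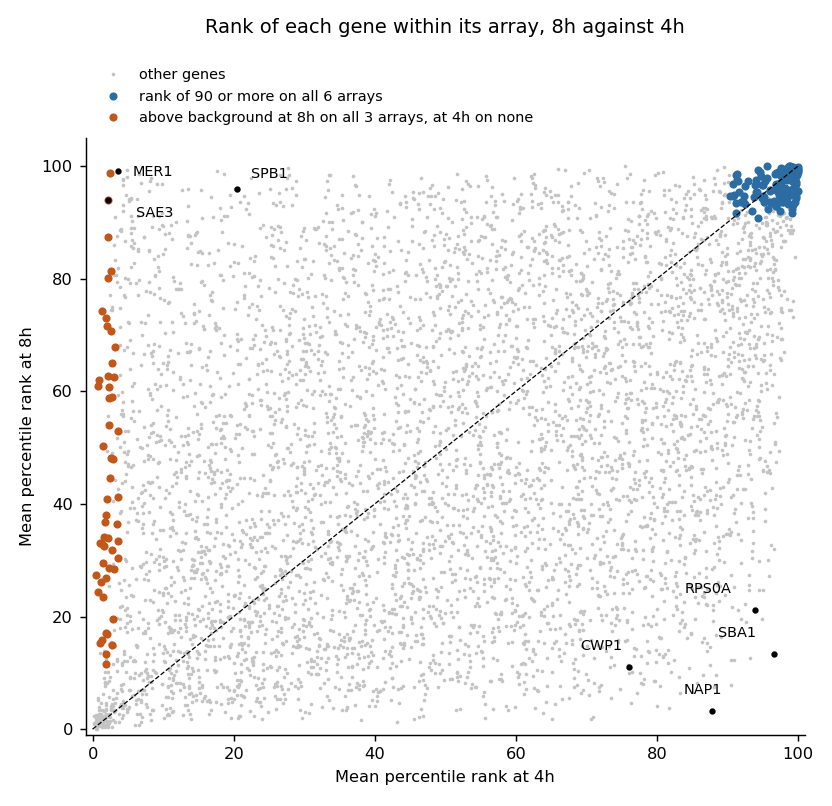
Mean percentile rank over 3 arrays at 8h (vertical) and at 4h (horizontal) for each of the 5635 genes, with the line of equal rank dashed. The 148 genes at 90 or more on all 6 arrays fill the upper right corner, and the 53 genes above background on all 3 arrays at 8h and on none at 4h form a column at the left edge.

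Genes that ranked high at both times were mostly genes of protein synthesis, glycolysis, the cell wall and chromatin. A rank of at least 90 on all 6 arrays was found for 148 genes, or 2.63% of 5635, while 374 genes passed that rank on all 3 arrays at 8h and 511 on all 3 at 4h. They were chosen by level at these times, so their levels are described without a test. They held 67 of the 127 cytosolic ribosomal protein genes, 10 of 16 glycolytic genes and 5 of 10 histone genes, and 30 of them were on none of the lists. The threshold fell within a continuous range. ICY1 and ERG13 were the last inside it, with a lowest rank of 90.1 and 90.2, and VMA7 and RPP1B stood just outside with 89.9 each.

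CCW12, which encodes a structural mannoprotein of the cell wall, ranked 99.7, 99.7 and 99.8 at 8h and 99.9 on each array at 4h. GPM1, the phosphoglycerate mutase of glycolysis, ranked 99.4, 99.4 and 99.6 at 8h and from 99.9 to 100.0 at 4h. TDH3, the main glyceraldehyde-3-phosphate dehydrogenase, ranked 98.7, 99.5 and 99.9 at 8h and from 99.9 to 100.0 at 4h. All stayed near the top of every array, although their deposited signals at 8h were several times lower: CCW12 had 1001, 1016 and 696 at 8h against 3782, 4236 and 3289 at 4h. Each was also called lower on the normalised scale, with log2 changes of -0.43 for CCW12, -0.93 for GPM1 and -0.93 for TDH3. The other glycolytic genes high at both times were CDC19, ENO1, ENO2, FBA1, HXK2, PGK1, TDH1 and TPI1. The fermentative enzymes pyruvate decarboxylase (PDC1) and alcohol dehydrogenase (ADH1, ADH4) were there too.

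Sugar entry and storage genes at this level were few and tied to disaccharides. SUC2, the invertase that splits sucrose outside the cell, ranked 99.1, 98.5 and 98.97 at 8h and 97.4, 97.0 and 97.1 at 4h. MAL32, a maltase, ranked 99.2, 99.1 and 99.7 at 8h and 99.6, 99.4 and 99.04 at 4h, and the maltose permease MAL31 ranked 94.6, 96.6 and 96.3 at 8h and 97.7, 97.9 and 97.7 at 4h. MAL32 was measured with shared probes by the ending of its probe set name, like 17 of the 148 genes, against 81 of all 5635. The rest included the drug efflux pumps PDR5 and PDR15, the small membrane proteins PMP1 and PMP3, the fatty acid genes FAS1, OLE1 and TSC13, the sterol genes ERG11 and ERG13, the heat shock gene HSP12, actin (ACT1) and the proteasome subunit gene PRE7. Measured at times the choice did not use, 80 of the 148 (54.1%) ranked at least 90 on all 3 arrays at 30h, against 372 of all 5635 genes (6.60%). At 0h 111 did so, against 301 of all genes. Of the 374 genes high on all 8h arrays, 259 (69.3%) were so at 30h and 115 at 0h. Of the 511 high on all 4h arrays, 97 (19.0%) were so at 30h and 248 at 0h. A high rank at 30h was thus not particular to the 148. The limits of the 30h and 0h arrays given above apply to these counts.

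Another small set of genes, mixed in kind, was silent at 4h and detected at 8h. At 4h, 164 genes were not above background on any array. At 8h, 53 of these were above background on all 3 arrays, 11 on 2 arrays, 12 on 1 and 88 on none. The set was chosen by its 4h level, so its difference between the times is a description. COS2 and ECM23 lay just inside the background threshold at 4h, with a highest ratio of signal to background of 0.989 and 0.988, and YIR042C and YFR012W-A just outside it with 1.002 and 1.003. Without array 4h C, the count of 53 would be 83.

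The 53 genes had a median rank of 38.1 at 8h and 2.13 at 4h. The choice itself sets every deposited 8h signal of these genes above every 4h signal, since the background was higher on each 8h array. At 8h, 21 ranked 50 or more and 2 ranked 90 or more. At 30h all 53 were above background on all 3 arrays, while of the other 111 genes silent at 4h only 14 were. The 30h arrays were like the 8h arrays in background and range, so a lasting change and a trait of the arrays cannot be told apart. At 0h, 6 of the 53 were above background on all 3 arrays and 25 on none; array 0h A had a ratio of 3′ to 5′ probe sets of 35.5.

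YDL159W-A, a short reading frame known by its systematic name, ranked 99.1, 98.2 and 99.2 at 8h and 1.75, 3.97 and 1.75 at 4h. Its deposited signals were 564, 369 and 304 at 8h against 1.68, 4.69 and 1.87 at 4h, a normalised level at least 165-fold higher at 8h, where the 4h level is bounded by the background. Normalisation widened the range of the 8h arrays. This fold and the "at least" folds below hold on the normalised scale only and need not be lower bounds for the deposited signals. SAE3, a meiosis-specific factor that helps load the strand-exchange protein Dmc1, had deposited signals of 251, 190 and 116 at 8h and 0.991, 3.80 and 1.90 at 4h, at least 69.1-fold higher after normalisation. HOP2, whose product ensures pairing of homologous chromosomes in meiosis, had 151, 120 and 96.2 at 8h and 2.16, 1.03 and 3.95 at 4h, at least 40.6-fold higher. For each of these genes the arrays of the times were far apart.

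Meiosis genes made up 8 of the 53, namely CDA2, CSM4, GMC2, HOP2, MEI5, MND1, NDJ1 and SAE3, and 11 of the 164 genes silent at 4h. The list has 67 of all 5635 genes. Of these 67, 44 had a mean rank below 10 at 4h, among 544 such genes in all. The 5635 genes are thus not a like background for genes chosen as silent at 4h. The level of CDA2, a chitin deacetylase of the spore wall, was at least 21.5-fold higher. CSM4, needed for chromosome movement in meiosis, was at least 17.3-fold higher. MND1, the partner of Hop2, ranked 33.6, 70.6 and 72.2 at 8h and 3.30, 0.730 and 3.02 at 4h, so that array 8h A stood below the other 8h arrays. Mating genes were represented by STE18, which encodes the gamma subunit of the pheromone-coupled G protein, and PRM6, and the phosphate genes by PHM6. Short reading frames with a suffix in their systematic name made up 17 of the 53, 43 of the 164 silent at 4h and 163 of all 5635 genes. A further 8 of the 53 had only a systematic name. The opposite class was empty: no gene at 90 or more on all 4h arrays was below background on all 8h arrays. Over all genes, 235 were not above background at 8h.

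**Figure D3:**
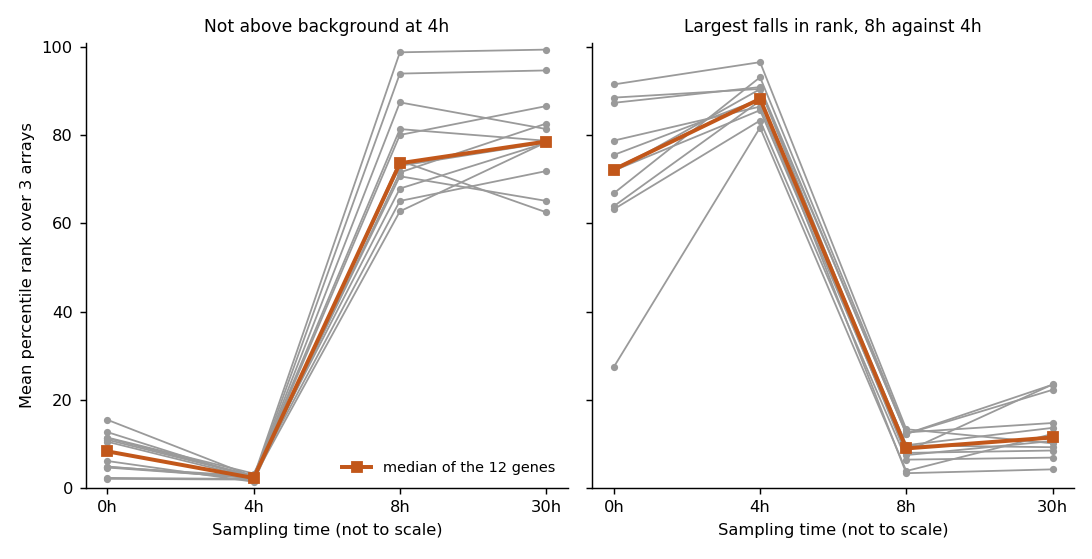
Mean percentile rank over 3 arrays at 0h, 4h, 8h and 30h (horizontal spacing not to scale) for the 12 genes of highest 8h rank among the 53 silent at 4h (left) and the 12 largest falls in rank (right). Grey lines are genes and the coloured line is the median of the 12. In both panels the 30h level lies near the 8h level and apart from the 4h level. The 30h arrays were also like the 8h arrays in background and range.

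The 12 largest rises among called genes with separated arrays included 2 genes of the meiosis list, MER1 and SAE3, and 8 reading frames with no standard name. MER1, a meiosis-specific splicing factor, ranked 99.04, 99.3 and 99.2 at 8h and 1.91, 3.98 and 4.97 at 4h. Its deposited signals were 542, 607 and 316 at 8h against 1.93, 4.70 and 5.98 at 4h, where it was above background on 1 of 3 arrays, so no exact fold is given. DGR1 ranked 98.2, 96.8 and 98.0 at 8h and 5.32, 3.83 and 3.81 at 4h, and RRT5 ranked 96.6, 95.7 and 92.5 at 8h and 5.36, 4.12 and 4.76 at 4h; each was above background on 2 of 3 arrays at 4h. Also among the 12 were YDL159W-A, SAE3, YBR219C, YNL146C-A, YOR365C, YBL008W-A, YLR042C, YKL183C-A and YOL155W-A. For YBR219C the probe set used ranked 99.3 at 8h and 4.91 at 4h on average, but a second probe set with a shared ending ranked 40.8 and 47.0, so the gene's change is uncertain. In all, 48 genes had more than 1 probe set, and the mean ranks of the sets differed by over 25 points for 14 genes at 8h and for 8 genes at 4h. For 16 of the 48 the sets moved in opposite directions.

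The largest falls reached genes of chromatin assembly, protein folding, redox balance and nitrogen use. NAP1, a histone chaperone, ranked 1.86, 4.83 and 3.25 at 8h and 88.0, 87.1 and 88.3 at 4h, and its normalised level was at least 19.5-fold lower at 8h, where it was not above background on any array. MAP2, a methionine aminopeptidase, had deposited signals of 8.87, 11.0 and 11.6 at 8h against 539, 492 and 557 at 4h, at least 20.0-fold lower. HAC1, the transcription factor of the unfolded protein response, was at least 15.3-fold lower at 8h, but its ranks at 4h were spread, at 90.3, 87.2 and 67.7. The 8h arrays of NAP1, MAP2 and HAC1 were all below background.

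For several other falls the 8h level rested on unequal arrays. SBA1, an Hsp90 co-chaperone, ranked 21.8, 16.5 and 1.59 at 8h and 96.7, 96.6 and 96.5 at 4h. CPR5, a cyclophilin of the endoplasmic reticulum, ranked 16.7, 9.70 and 2.47 at 8h and 87.8, 88.6 and 88.7 at 4h. Array 8h C was the lowest in both, and the 4h arrays were close together. GDH2, the glutamate dehydrogenase that degrades glutamate, fell by 4.22 on the log2 scale (SE 0.24, adjusted p = 3.87e-06, limma), and GRX1, a glutaredoxin, by 4.31 (SE 0.28, adjusted p = 6.79e-06), and at 8h only 2 of 3 arrays had either gene above background. Also among the 12 falls were MRPS12 of the mitochondrial ribosome, DCS2, AVT3, FIS1, which acts in mitochondrial fission, and PET10 of lipid droplets.

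**Figure D4:**
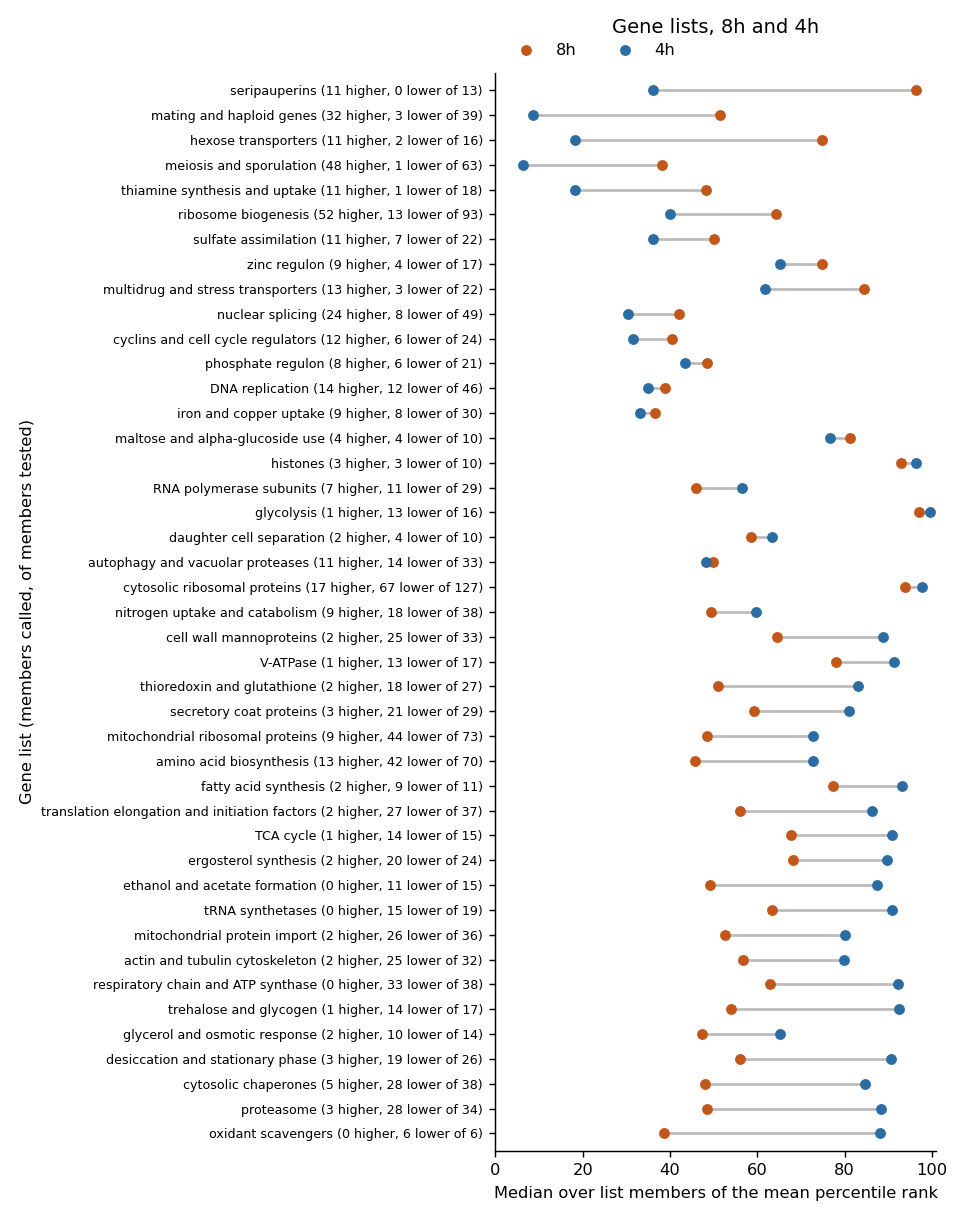
Median over the members of each gene list of the mean percentile rank at 8h and at 4h, with the numbers of members called higher and lower at 8h, of those tested, in the row names. Rows are ordered by the median change in rank, from the largest median rise at the top to the largest median fall at the bottom.

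Ribosomal protein genes kept a high median rank, while over 50% of them were called lower. The 127 cytosolic ribosomal protein genes had a median rank of 93.8 at 8h and 97.7 at 4h. Their counts depended on the scaling: 17 were called higher and 67 lower, but 1 and 116 with each array centred on its median, 0 and 123 on the deposited signals, and 10 higher without array 4h C and 11 without array 4h A. At 8h, 85 ranked 90 or more and 6 below 50, against 118 and 0 at 4h. RPS0A and RPS0B, duplicate genes for a protein of the small subunit, moved unequally. RPS0A ranked 17.4, 32.6 and 13.3 at 8h and 94.3, 93.7 and 93.7 at 4h, while RPS0B ranked 89.3, 92.7 and 92.0 at 8h and 97.3, 97.0 and 97.0 at 4h. Of 49 such duplicate pairs without shared probe endings, 4 differed in their change of mean rank by over 25 points (RPS0, RPL13, RPL34 and RPL15), and the median difference was 4.67 points. RPS30A, which encodes the S30 protein and has shared probes, ranked 100.0, 100.0 and 100.0 at 8h and 98.7, 98.7 and 99.1 at 4h, a rise that turned to a log2 difference of -0.21 on the deposited signals. For RPS23A the probe set used had a mean rank of 53.0 at 8h and 94.6 at 4h, but a second set, with shared probes, had 99.8 at 8h and 99.5 at 4h. The sets of RPL8A, RPS11B and RPS18B likewise moved in opposite directions, as did those of RPL2A, RPL14B, RPL20B, RPS10A, RPS17B and RPS19B. The changes of all these genes are uncertain.

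Ribosome biogenesis genes, which make and assemble ribosomes in the nucleolus, moved the other way from the ribosomal proteins by rank. Of 93 tested, 52 were called higher and 13 lower, with a median rank of 64.4 at 8h and 40.0 at 4h, a direction that turned to 11 higher and 33 lower on the deposited signals. SPB1, a methyltransferase of large-subunit assembly, ranked 96.2, 95.9 and 95.8 at 8h and 17.4, 21.8 and 22.4 at 4h, with deposited signals of 270, 255 and 143 at 8h against 27.0, 34.8 and 36.4 at 4h. RRP36, needed for small-subunit RNA processing, ranked 88.2, 93.4 and 91.7 at 8h and 9.31, 7.98 and 10.8 at 4h. DBP8, an RNA helicase of small-subunit assembly, ranked 96.0, 94.4 and 94.1 at 8h and 19.8, 14.9 and 23.6 at 4h. In each of these 3 genes the deposited signals were also higher on every 8h array than on any 4h array.

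Other parts of the translation apparatus were lower. None of 19 tRNA synthetase genes was called higher and 15 were called lower, at a median rank of 63.5 at 8h and 90.8 at 4h. THS1, the threonyl-tRNA synthetase, ranked 41.5, 24.4 and 15.6 at 8h and 95.8, 95.7 and 96.1 at 4h. YHR020W, the prolyl-tRNA synthetase, was an exception in level, ranking 97.0, 91.4 and 95.2 at 8h and 94.98, 94.8 and 95.5 at 4h, with arrays that overlapped. Of 37 initiation and elongation factor genes, 27 were called lower, among them CAM1 of elongation, the initiation factor TIF5 and the termination factor SUP35. The elongation factor TEF2 kept a rank above 99 on all 6 arrays, measured with shared probes. Among 73 mitochondrial ribosomal protein genes, 9 were called higher and 44 lower, with 4 or 5 called higher without any 1 of the 4h arrays and 1 with median centring.

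Protein folding and degradation genes fell from a high 4h rank. Of 34 proteasome genes 3 were called higher (0 with median centring) and 28 lower, at a median rank of 48.4 at 8h and 88.4 at 4h. RPN10, a ubiquitin receptor of the proteasome, ranked 18.2, 21.3 and 24.2 at 8h and 91.3, 91.4 and 91.9 at 4h. PRE7, a subunit of its catalytic core, ranked 97.9, 98.3 and 98.7 at 8h and 94.7, 94.7 and 94.98 at 4h, a rise by rank only, since its deposited signals were 352, 375 and 245 at 8h and 1102, 1141 and 1145 at 4h. Of 38 cytosolic chaperone genes 5 were called higher and 28 lower. CCT2, a subunit of the chaperonin that folds actin and tubulin, ranked 13.5, 16.5 and 18.6 at 8h and 86.1, 87.0 and 86.7 at 4h. Among 32 actin and tubulin cytoskeleton genes, 25 were called lower and 2 higher, with 1 called higher without any 1 of the 4h arrays and 4 without 8h A. PFY1, profilin, ranked 33.9, 26.2 and 14.1 at 8h and 94.5, 94.4 and 94.6 at 4h, with no overlap. ACT1, actin itself, ranked 91.2, 93.5 and 95.9 at 8h and 99.5 on each array at 4h.

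Genes of respiration and of defence against oxygen products also ranked lower. None of 38 respiratory chain and ATP synthase genes was called higher and 33 were called lower, at a median rank of 62.9 at 8h and 92.2 at 4h. NDI1, the NADH dehydrogenase of the inner mitochondrial membrane, ranked 27.4, 23.9 and 12.5 at 8h and 84.2, 82.8 and 81.2 at 4h, while ATP1 of the ATP synthase ranked 90.3, 93.7 and 94.8 at 8h and 97.1, 97.0 and 96.6 at 4h. Of 15 tricarboxylic acid cycle genes 14 were called lower and 1 higher. All 6 oxidant scavenger genes (catalase, superoxide dismutase and related enzymes) were called lower. CTT1, the cytosolic catalase, ranked 56.5, 55.5 and 56.3 at 8h and 96.6, 96.6 and 97.2 at 4h. SOD1, the copper-zinc superoxide dismutase, ranked 37.5, 57.2 and 43.1 at 8h and 94.6, 95.1 and 95.2 at 4h. CCS1, its copper chaperone, ranked 8.06, 6.97 and 1.64 at 8h and 75.8, 74.0 and 70.7 at 4h, and was above background on 1 of 3 arrays at 8h. Of 27 thioredoxin and glutathione genes 18 were called lower and 2 higher, with 1 called higher without 8h B, 4h A or 4h C.

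Most genes of lipid synthesis, wall mannoproteins and the vacuolar ATPase were called lower, with bright exceptions. Of 24 ergosterol genes 20 were called lower and 2 higher (0 higher with median centring). ERG8, the phosphomevalonate kinase, ranked 24.4, 16.2 and 18.2 at 8h and 80.2, 80.4 and 82.4 at 4h. ERG11, the lanosterol demethylase, stayed high, at 92.4, 92.9 and 96.6 at 8h and 98.1, 98.1 and 96.7 at 4h. Of 11 fatty acid genes 9 were called lower and 2 higher (0 higher with median centring). FAS1 and FAS2 encode the subunits of fatty acid synthase and moved unequally. FAS1 ranked 93.2, 93.0 and 94.0 at 8h and 96.5, 96.4 and 96.5 at 4h. FAS2 ranked 56.9, 36.1 and 45.1 at 8h and 95.1, 95.05 and 95.1 at 4h. Of 33 cell wall mannoprotein genes 25 were called lower and 2 higher (5 higher with median centring). CWP1 ranked 6.48, 9.74 and 16.8 at 8h and 75.3, 76.1 and 76.9 at 4h. Among 17 vacuolar ATPase genes 13 were called lower and 1 higher, with 0 called higher without array 4h C. Of 33 genes of autophagy and vacuolar proteases 11 were called higher and 14 lower, near the shares of all genes.

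Most storage carbohydrate, stationary phase and osmotic response genes were called lower. Of 17 trehalose and glycogen genes 14 were called lower and 1 higher (2 without array 8h B), at a median rank of 54.1 at 8h and 92.4 at 4h. ATH1, the acid trehalase, ranked 15.2, 8.17 and 6.80 at 8h and 63.5, 62.8 and 69.2 at 4h. Of 26 genes of desiccation and stationary phase 19 were called lower and 3 higher. UBI4, the polyubiquitin gene, ranked 26.8, 54.5 and 31.1 at 8h and 94.2, 93.3 and 93.4 at 4h. HSP12 ranked 96.9, 98.0 and 97.6 at 8h and 98.4 on each array at 4h, and its change did not pass the test. Of 14 glycerol and osmotic response genes 10 were called lower and 2 higher. GUT1, glycerol kinase, ranked 6.89, 10.5 and 17.0 at 8h and 88.2, 87.3 and 87.0 at 4h, whereas FPS1, the glycerol export channel, ranked 91.2, 93.8 and 95.6 at 8h and 63.8, 66.3 and 65.6 at 4h. STL1, which takes glycerol up, rose as well, with ranks of 61.0, 58.1 and 64.9 at 8h and 9.16, 9.49 and 7.96 at 4h.

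Hexose transporter genes were among those that rose. Of 16 tested, 11 were called higher and 2 lower, at a median rank of 74.8 at 8h and 18.2 at 4h. Of the 17 measured, 12 had a mean rank below 50 at 4h and 7 below 10, where genes of any kind tended to rise. GAL2, the galactose permease, had deposited signals of 201, 159 and 104 at 8h against 11.4, 18.5 and 13.0 at 4h. HXT14 ranked 85.3, 89.2 and 85.4 at 8h and 3.63, 5.08 and 5.06 at 4h, and HXT8 ranked 83.7, 89.9 and 81.7 at 8h and 8.59, 8.42 and 7.04 at 4h. HXT1, a low-affinity carrier used at high glucose, ranked 84.2, 82.0 and 75.6 at 8h and 52.3, 46.4 and 47.8 at 4h. HXT2, a high-affinity carrier, ranked 75.7, 76.7 and 72.1 at 8h and 98.0, 97.4 and 97.3 at 4h. Arrays of HXT1 and HXT2 did not overlap between the times, as for most tested genes, and the genes were called in opposite directions. For HXT9, a second probe set with shared probes ranked 93.2 at 8h and 40.9 at 4h while the set used was below background at both times. Of 10 maltose and alpha-glucoside genes 4 were called higher (2 with median centring), among them the activator gene MAL13, and 4 lower, among them the isomaltase gene IMA1, but on the deposited signals 1 was called higher and 7 lower.

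Mating and meiosis genes rose from near the bottom of the 4h arrays, where genes of any kind tended to rise. All 544 genes ranking below 10 at 4h had a median rank of 27.4 at 8h. Of 39 tested mating and haploid-specific genes 32 were called higher and 3 lower, at a median rank of 51.4 at 8h and 8.52 at 4h. RME1, a repressor of meiosis, ranked 96.3, 96.5 and 97.5 at 8h and 8.56, 8.75 and 10.1 at 4h. STE2, the receptor for alpha-factor, had deposited signals of 45.1, 36.1 and 34.2 at 8h against 10.3, 12.03 and 11.6 at 4h, and STE3, the receptor for a-factor, had 110, 129 and 96.6 at 8h against 7.35, 6.09 and 7.59 at 4h. The receptors belong to opposite mating types, and the signals of both were higher on every 8h array. MFA1 and MFA2 both encode the a-factor pheromone. MFA2 ranked 87.4, 87.8 and 92.0 at 8h and 4.83, 8.31 and 4.64 at 4h, while MFA1 ranked 8.80, 13.8 and 21.0 at 8h and 6.41, 6.69 and 5.90 at 4h.

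Of 63 tested meiosis and sporulation genes 48 were called higher and 1 lower (2 without array 8h C), at a median rank of 38.1 at 8h and 6.38 at 4h. SPO75, a sporulation gene, ranked 93.4, 93.2 and 96.1 at 8h and 7.01, 5.78 and 6.11 at 4h. IME1, the master inducer of meiosis, ranked 37.1, 39.2 and 44.6 at 8h and 7.54, 4.64 and 4.53 at 4h. NDT80, the activator of middle meiotic genes, ranked 30.5, 45.1 and 38.8 at 8h and 6.96, 15.8 and 11.1 at 4h. Levels of the list at 30h were like those at 8h, with a median rank of 43.2, and at 0h the median was 9.45. The limits of the 30h and 0h arrays given above apply to both values. The direction of the meiosis list held on the deposited signals, with 43 called higher and 4 lower, as did that of the mating list, with 26 and 5. Both lists ranked near the bottom at 4h, and the background was higher on each 8h array. At 8h, 3 of the 67 meiosis genes and 2 of the 41 mating genes measured were not above background on any array. The part of the higher background in these counts was not tested.

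Cell cycle, replication and splicing genes showed mixed calls. Of 24 cyclin and cell cycle genes 12 were called higher and 6 lower, but 5 and 7 on the deposited signals. CLB5, a cyclin of S phase, ranked 89.7, 79.1 and 85.9 at 8h and 15.4, 14.7 and 15.4 at 4h, and CLN2, a cyclin of G1, ranked 87.3, 96.7 and 98.7 at 8h and 60.3, 61.3 and 59.3 at 4h. Of 46 DNA replication genes 14 were called higher and 12 lower, below the shares of all genes, and the balance turned to 5 and 25 on the deposited signals. Of 49 nuclear splicing genes 24 were called higher and 8 lower (5 lower without array 4h B or 4h C), and the direction turned to 8 and 18 on the deposited signals. Histone genes split, with 3 of 10 called higher and 3 lower, but 1 and 9 with median centring, 0 and 9 on the deposited signals, and 1 higher without array 4h A or 4h B. HTA2, called higher, had a second probe set, with shared probes, that moved the other way. HTB1, a gene of histone H2B, ranked 97.8, 99.2 and 97.8 at 8h and 98.3, 98.5 and 98.0 at 4h. HTB2, the other H2B gene, ranked 63.2, 70.6 and 71.5 at 8h and 94.4, 94.2 and 93.6 at 4h.

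Nutrient and metal genes included single large changes in both directions. Of 21 phosphate genes 8 were called higher and 6 lower, but 5 and 10 on the deposited signals. GIT1, a glycerophosphoinositol transporter, had deposited signals of 158, 152 and 85.0 at 8h against 3.41, 5.93 and 4.18 at 4h, and PHO89, a sodium-phosphate cotransporter, had 237, 177 and 113 at 8h against 31.0, 33.4 and 42.0 at 4h. Of 18 thiamine genes 11 were called higher and 1 lower (2 without array 8h A), with PDC2, their activator, at 87.3, 87.0 and 92.2 at 8h and 31.7, 31.2 and 31.7 at 4h. Among 17 zinc genes 9 were called higher and 4 lower, but 7 and 7 with median centring and 1 and 9 on the deposited signals. ZRT1, the high-affinity zinc importer, ranked 87.3, 85.0 and 85.2 at 8h and 96.6, 96.3 and 96.0 at 4h, and ZRC1, the vacuolar zinc transporter, ranked 53.9, 17.5 and 49.0 at 8h and 91.7, 91.9 and 92.0 at 4h. Of 30 iron and copper genes 9 were called higher and 8 lower, but 2 and 16 on the deposited signals. FET3, the iron-uptake oxidase, ranked 7.15, 5.36 and 1.80 at 8h and 65.7, 64.9 and 62.2 at 4h. ATX1, a copper chaperone, ranked 95.3, 96.3 and 96.5 at 8h and 61.7, 61.3 and 65.2 at 4h.

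Of 16 glycolytic genes 13 were called lower (8 on the rank scale) and 1 higher, and of 15 genes of ethanol and acetate formation 11 were called lower and 0 higher (2 without array 8h A). Mitochondrial import had 26 of 36 called lower and 2 higher (4 without array 8h A), and secretory coats had 21 of 29 called lower and 3 higher. RNA polymerase subunits had 11 of 29 called lower and 7 higher. Daughter cell separation had 4 of 10 called lower (2 without array 8h B or any 1 of the 4h arrays) and 2 higher.

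Amino acid and nitrogen genes were more often called lower than higher. Of 70 amino acid biosynthesis genes 13 were called higher and 42 lower, with HIS6 of histidine synthesis at 97.1, 96.1 and 94.5 at 8h and 28.4, 25.04 and 29.0 at 4h. CYS3, which makes cysteine, was at least 10.4-fold lower at 8h and not above background there. Of 22 sulfate assimilation genes 11 were called higher and 7 lower (4 lower without any 1 of the 4h arrays or with median centring), and on the deposited signals the split was 5 and 10. MET32, a regulator of the pathway, ranked 66.9, 88.0 and 93.3 at 8h and 15.5, 20.5 and 15.5 at 4h, so that 8h A stood below 8h B and C. Of 38 nitrogen genes 9 were called higher and 18 lower. CAN1, the arginine permease, ranked 10.5, 6.61 and 6.08 at 8h and 65.1, 63.0 and 65.1 at 4h, while UGA4, the permease for gamma-aminobutyrate, ranked 73.6, 69.5 and 79.5 at 8h and 12.8, 16.7 and 15.6 at 4h.

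Membrane transporters of drugs and seripauperins were raised by rank, each with a limit. Of 22 multidrug and stress transporter genes 13 were called higher and 3 lower, but 9 and 8 with median centring and 6 and 12 on the deposited signals. QDR1, a drug exporter, had deposited signals of 212, 149 and 104 at 8h against 33.8, 36.3 and 35.9 at 4h, and ATR1, another exporter, had 96.1, 115 and 89.4 at 8h against 24.99, 20.3 and 23.5 at 4h. For the polyamine exporter gene TPO2, the probe set used ranked 84.5 at 8h and 16.5 at 4h on average, but a second set with shared probes ranked 85.7 and 73.3. The seripauperins, cell wall proteins of near-identical sequence, had 11 of 13 genes called higher, at a median rank of 96.4 at 8h and 36.2 at 4h, but only 2 called higher once genes measured with shared probes were left out. Their counts cannot be assigned to single genes.

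Genes measured with shared probes and reading frames without a standard name stood apart in their calls. Of 69 tested genes whose probe set has a shared-probe ending, 40 were called higher and 10 lower, against 34.4% and 38.6% of all tested genes. Of 134 tested short reading frames with a suffixed systematic name, 98 were called higher and 14 lower, at a median rank of 48.9 at 8h and 5.49 at 4h over the 163 measured. Of 487 reading frames with only a systematic name, 220 were called higher and 133 lower. Of 4874 genes with a standard name, 1570 were called higher and 1972 lower. The name classes were made after values had been seen, and their part in the list counts above was not tested.

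Related genes often moved unequally. In 31 pairs of isozymes or duplicate genes, both members were called lower in 16 pairs and both higher in 1, the members were called in opposite directions in 4 and 1 member alone was called in 10. The changes in mean rank differed by over 25 points in 14 pairs. COX5A and COX5B encode alternative forms of a cytochrome oxidase subunit, used in ample oxygen and in low oxygen. COX5B ranked 77.6, 88.8 and 81.1 at 8h and 82.4, 81.9 and 83.9 at 4h, while COX5A had a mean rank of 30.4 at 8h and 93.5 at 4h. PMA1 and PMA2 encode plasma membrane proton pumps. PMA2 ranked 81.6, 67.6 and 64.4 at 8h and 20.1, 17.2 and 16.7 at 4h, while PMA1 ranked 93.1, 88.0 and 95.1 at 8h and 97.0, 96.3 and 95.9 at 4h. TIR1 and TIR2 encode related wall mannoproteins. TIR1 ranked 59.7, 71.6 and 74.4 at 8h and 95.07, 94.996 and 95.29 at 4h. TIR2 ranked 73.4, 76.0 and 81.0 at 8h and 33.1, 29.9 and 28.6 at 4h. In each of these pairs the changes were unequal. PMA1 with PMA2, TIR1 with TIR2, HXT1 with HXT2, and CDC19 with PYK2 were the pairs called in opposite directions, although PYK2 was lower at 8h on the deposited signals. The difference between the changes of 2 genes was not itself tested.

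**Figure D5:**
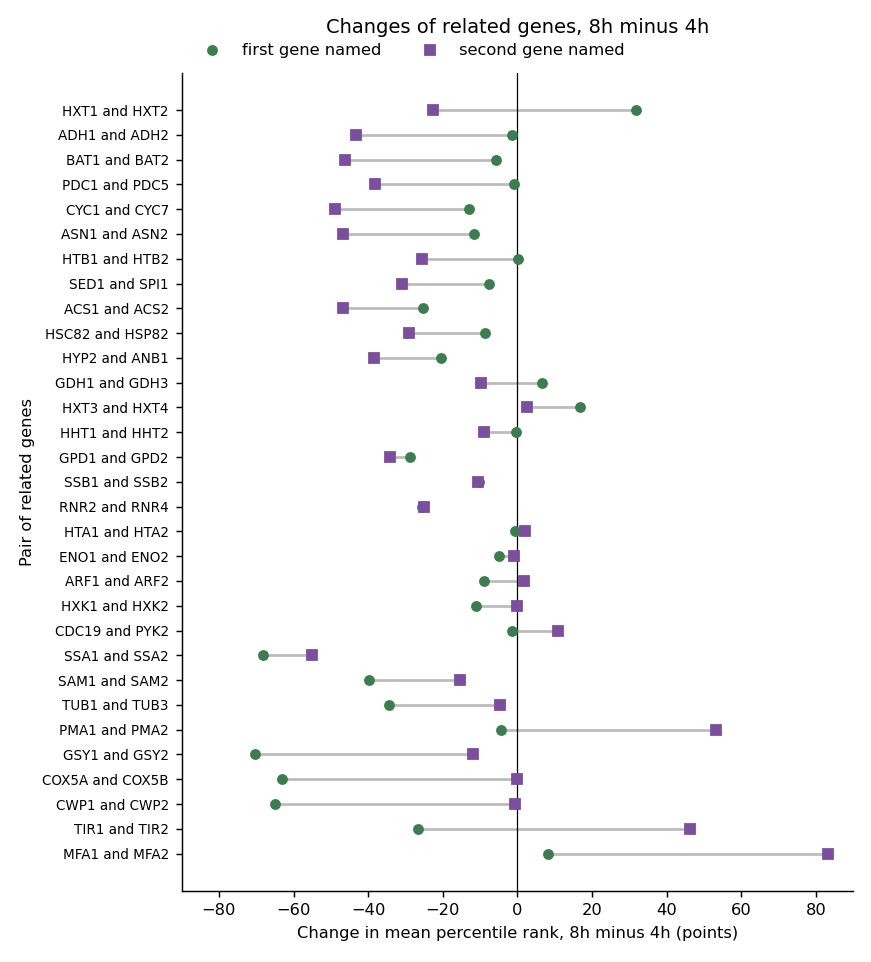
Change in mean percentile rank, 8h minus 4h, of the first gene (circle) and the second gene (square) of 31 pairs of related genes, joined by a line. The longest lines belong to MFA1 with MFA2 (8.23 and 83.1 points) and TIR1 with TIR2 (-26.6 and 46.3 points).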

How the data were processed

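The deposited intensity values are linear Affymetrix signals, 1 per probe set and array; the submitters' processing notes name GCOS 5.0 and MAS5 and give no parameters, and per the labels total RNA was labelled as biotinylated cRNA. The deposited columns did not share a scale, so the 6 arrays were quantile-normalised as log2 values over S. cerevisiae probe sets with no pseudocount, and percentile ranks were taken within each array. Genes were named through the platform annotation, which can be old. For a gene with several probe sets, those without a shared-probe ending were preferred, then the brighter. Genes under a mean signal of 5.63 (the 95th percentile of S. pombe means) were not tested. Background was the 95th percentile of S. pombe signals on each array. For "at least" folds, taken on the normalised scale, a dim group was set at the higher of that background and its own value. Tests were two-sided, in R 4.3.3 with limma 3.58.1 (lmFit, eBayes with trend, 4 residual degrees of freedom), with calls at 0.05 after Benjamini-Hochberg adjustment across 5495 genes. They were run on simulated data in which few genes changed and both times had the same spread. That simulation does not cover the broad changes and unequal spread of these arrays. The number of arrays limits precision. No arrays held identical values. The alternatives were other normalisations, filters, thresholds, array weights, a replicate block and leaving out each array.

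The members and lists were chosen with earlier results of these data known, and RET1, TIM11 and GCD10 were taken out of lists for their function after the data were seen. Named genes were, by rule, the 15 brightest of those high at both times, the 12 brightest at 8h of those silent at 4h, the 12 largest rises and falls in rank, 3 members of largest change and 2 of highest rank in each list, and the gene pairs; STE2, STE3, IME1, NDT80, MND1, RPS0B, MAL31, genes at the edge of a threshold, genes with a second probe set and other class members listed by name were chosen after their values were seen, and some genes of the rule are not named for length.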

Additional observations from a re-analysis of the deposited data

Results flagged for a closer look

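Probe sets with no gene named took no part in the comparison. Of 68 such probe sets that are not controls, 23 were above background on all 3 arrays at 8h, against 27 on all 3 arrays at 4h, and 0 were above background on all 8h arrays and on no 4h array. They were singled out because they carry signal in data outside the comparison, and nothing about their identity was tested.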

How the results depend on the processing

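The 1888 higher and 2119 lower calls became 788 and 3325 on the deposited signals with no normalisation, and stayed within 1.5 times under the other alternatives. Leaving out 1 array at a time gave 1676 to 1979 higher and 1817 to 2207 lower. With a replicate block the counts were 1822 and 2085. Deviations of arrays with the same letter correlated at 0.03, 0.03 and -0.02, so the letters were not treated as pairs. Such values cannot show whether the letters mark related samples. The 148 genes high at both times became 71 at a rank of 95 and 341 at a rank of 80, and 148 to 177 without 1 array. With the background at the 99th percentile, 268 genes were silent at 4h, 102 of them were detected at 8h, and 1 gene high at 4h was not above background at 8h (2 genes at a rank of 80). The count of 53 ranged from 55 to 83 without 1 array, the highest without 4h C. On the deposited signals the log2 change turned to -1.82 for COX5B, -2.05 for FBA1, -2.75 for HTB1, -1.08 for ICY1, -2.43 for MAL32, -2.34 for PDR15, -1.91 for PMP1, -1.83 for PRE7, -0.81 for PYK2, -0.21 for RPS30A, -2.17 for SUC2 and -1.83 for TSC13. With median centring it turned to -0.69 for COX5B, -0.93 for FBA1, -1.62 for HTB1, -1.31 for MAL32, -1.21 for PDR15, -0.78 for PMP1, -0.70 for PRE7, -1.05 for SUC2 and -0.70 for TSC13. These are bright genes on arrays whose ranges differ (SD of log2 signals 1.42 to 1.47 at 8h and 2.24 to 2.27 at 4h), and the cause was not tested. The low signal over background at 8h limits what can be said of dim genes there.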
